A study of Mus musculus with 2 samples.

Results

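The stimulated cells richest in Spp1, the gene for osteopontin, lay in the upper tail of a single distribution. They are the 336 cells at or above the 95th percentile of Spp1 among 6708 kept stimulated cells, and they are set against the 3354 stimulated cells at or below the 50th percentile. Spp1 is given as unique molecular identifiers (UMIs, 1 per captured molecule) per 10000 UMIs of the cell. The series holds 2 droplet single-cell libraries of transcript 3′ ends with 12714 barcodes, of which 10785 were kept at 5000 or more UMIs and at most 20% mitochondrial UMIs. Both libraries come from lung cells of C57BL/6 mice, plated as a whole suspension and grown as fibroblasts in medium with 10% fetal bovine serum to passage 3. The stimulated library then had 14 days of stimulation, and the control library, from the same lung, had vehicle for as long. For stimulation the protocol names 10 µM rosiglitazone, 1 µM SB4315442 and 4 µM rhBMP4, singly or in combination, without naming the choice made for this library. The ITS+3 supplement at 1% by volume is named as the addition that induces a lipofibroblast-like state. With 1 library per group no difference could be tested over samples, so all values below describe these libraries, and their 95% intervals cover counting error only.

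Osteopontin is a secreted, acidic phosphoprotein that binds the integrins and CD44 on neighbouring cells and binds mineral in bone. Osteoblasts, osteoclasts, activated macrophages and wound fibroblasts are known to make it, and thrombin and matrix metalloproteinases cut it to expose further integrin sites. In the lung it is best known from macrophages and matrix of fibrotic tissue.

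The stretch upstream of Spp1 is shown because several transcription factors are known to act on it and their messages are described below. It is the 250 bases before the first of 2 listed start sites on the plus strand of GRCm38.p6, chr5:104434861-104435110, from RefSeq. Capitals mark a RUNX motif and a CCAAT box, the motifs nearest to the start.
Spp1 promoter: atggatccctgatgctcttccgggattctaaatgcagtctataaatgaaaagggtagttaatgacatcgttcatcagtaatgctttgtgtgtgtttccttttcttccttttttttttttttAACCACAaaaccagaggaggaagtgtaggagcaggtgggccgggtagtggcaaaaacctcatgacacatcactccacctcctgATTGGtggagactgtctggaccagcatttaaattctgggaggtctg
The letters AACCACA of the RUNX motif lie at positions -129 to -123 from the start. CCAAT is found on the minus strand at -46 to -42, and the TATA box letters TATAAA, not capitalised, on the plus strand at -211 to -206. Both strands were searched, and the AP-1 letters TGANTCA were not in this window. AACCACA occurs in 4.46% of all 27025 promoters of this length and CCAAT in 34.5%. Among genes compared below that have such a promoter, AACCACA was in 2.91% of those higher in the Spp1-high cells, 2.82% of those lower and 2.84% of all. TATAAA, in 12.97% of all promoters, was in 8.32%, 5.21% and 5.79% of the same groups, CCAAT in 38.3%, 35.6% and 36.7%, and TGANTCA in 5.28%, 4.99% and 3.76%. A match is a description of letters and not of binding.

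Spp1 chose the cells, so its own level is a description. In the Spp1-high cells it ranged from 111 to 614 UMIs per 10000, with a median of 155 (quartiles 129 and 196), or from 71 to 1406 UMIs per cell. In the comparison cells the lowest value was 0, the median 9.40 and the highest 21.4 per 10000. The distribution of stimulated cells had 1 mode with no gap at the threshold of 111.214. The 5 cells just inside lay between 111.282 and 111.774 per 10000, and the 5 just outside between 110.933 and 111.087. Pooled over cells, Spp1 was 18625 counts per 1000000 UMIs (CPM) against 1009 CPM, that is, 1.86% of all UMIs of the Spp1-high cells and 18.5-fold the comparison level. When the cells were chosen on a part of each cell's UMIs and read from the rest, 314 of 336 were chosen again and the fold was 17.2.

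**Figure D1:**
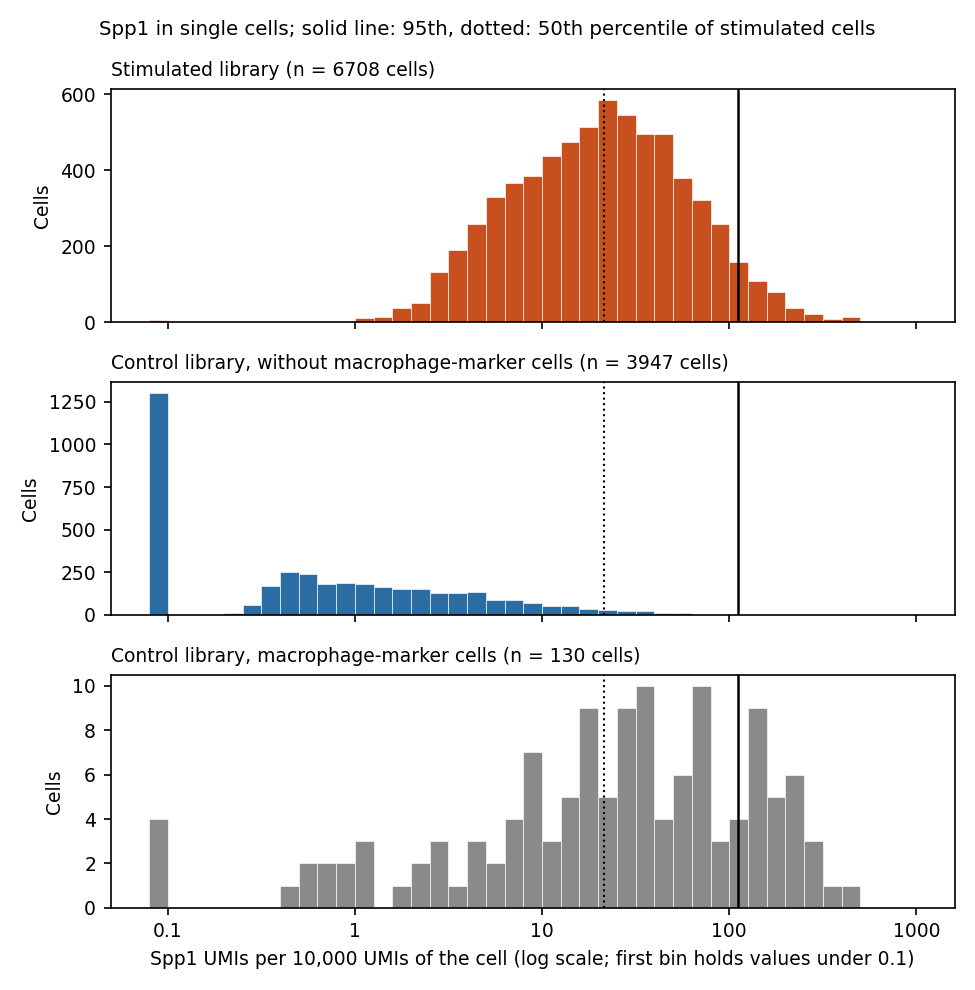
Number of cells (y axis) by Spp1 UMIs per 10000 UMIs of the cell (x axis, log scale) in the stimulated library, in the control library without macrophage-marker cells, and in the control macrophage-marker cells. The solid line marks the threshold of 111 and the dotted line the stimulated median of 21.4; 1 of 3947 control cells without macrophage markers, and 28 of 130 with them, reach the threshold.

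Control cells were far lower in Spp1. Pooled Spp1 was 401 CPM in the control library and 3469 CPM in the stimulated library. Only 29 of 4077 kept control cells reached the stimulated threshold, a share of 0.711% (exact binomial interval 0.477% to 1.02%). Of these, 28 were among the 130 control cells with at least 20 UMIs of 12 macrophage markers per 10000, and those 130 cells had 6687 CPM of Spp1. No stimulated cell met that macrophage criterion, so macrophage-marker cells make up 0 of 336 Spp1-high cells, which at 3 counts allows a share of up to 0.893% (exact binomial upper limit 1.09%). At least 1 Spp1 UMI was seen in 99.9% of kept stimulated cells, at a median of 16099 UMIs, and in 98.1% after thinning to 5000 UMIs, against 68.0% and 40.2% of control cells. Since 90.1% of the 841 stimulated barcodes under 3000 UMIs, with a median of 1333 UMIs, also held 1, this share is not read as the share of cells that express the gene.

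Defining markers placed the Spp1-high cells with the fibroblasts of the dish. All 12 fibroblast markers, among them collagens I and III, were detected, at a summed 6402 CPM against 6233 CPM in the comparison cells, and per cell the sum ranged from 20.3 to 319 per 10000 with a median of 59.5. The 12 macrophage markers summed to 7.41 CPM against 19.2 CPM, 8 of them were at 0 (Tyrobp, C1qa, C1qb, C1qc, Adgre1, Mrc1, Ctss and Laptm5), and 301 of the 336 cells held none of the 12. The same sum was 35119 CPM in the control macrophage-marker cells. Osteoclast markers summed to 57.6 CPM against 44.4 CPM, most of it Ctsk (52.4 CPM), with 6 of 10 at 0. Osteoblast markers summed to 16.3 CPM against 19.4 CPM, most of it Runx2 (15.2 CPM). Mesothelial markers were 25.3 CPM against 37.9 CPM, and smooth muscle and pericyte markers 234 CPM against 239 CPM. The epithelial, lymphocyte, mast cell and neutrophil, erythroid, adipocyte and Schwann lists each summed to under 5 CPM in the Spp1-high cells, and the endothelial list to 17.8 CPM with 7 of 10 at 0.

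In depth the groups were close, but not in ribosomal protein messages. The median was 16058 UMIs and 3406 genes per Spp1-high cell, against 17069 UMIs and 3451 genes, and mitochondrial shares had medians of 0.965% and 1.11%. Ribosomal protein genes took a median of 30.3% of a Spp1-high cell's UMIs (quartiles 26.8% and 34.8%) against 36.6% (32.9% and 40.2%) in the comparison cells. Because a share of this size moves all other genes the opposite way, counts of the gene lists below are also given with the comparison cells weighted so that their ribosomal shares are spread like those of the Spp1-high cells. The weighting favours comparison cells of low ribosomal share, so it changes which cells are compared and not only the totals. The fewest comparison cells in a ribosomal decile were 57. That weighting was added after the data were seen. Whether the ribosomal share belongs to the same state was not tested, so neither version, called a scale below, replaces the other.

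A gene counts as higher or lower here when its pooled CPM differed by at least 1.5-fold. Compared were the 8674 genes, without Spp1, that averaged 5 CPM or more over the groups. A gene can pass this filter through a single group. Tgfbi, Hgf and Col27a1 passed it only through the Spp1-high cells, and Wnt4 only through the comparison cells. Such calls are partly set by the filter and are not counted apart in the lists below. By the 1.5-fold measure 971 genes (11.2%) were higher in the Spp1-high cells and 612 (7.06%) lower. The median gene had a log2 fold of -0.05. At 2-fold the numbers were 225 (2.59%) and 76 (0.876%). With ribosomal shares equalised, 299 genes (3.43%) were higher, 250 of them among the 971, and 772 (8.87%) were lower, 492 of them among the 612. With totals counted without Spp1, mitochondrial and ribosomal protein genes, every gene shifted by -0.11 in log2 and 742 genes were higher and 1293 lower, so that 36.5% of called genes were higher in place of 61.3%. The balance of higher and lower genes therefore depends on the scale, and the groups below are read against the percentages of the same setting.

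Clu, Mmp3 and Ptn, all secreted, had the largest higher folds. Clu, the secreted chaperone clusterin, had 65.2 CPM against 12.05 CPM in the comparison cells, a fold of 5.41 (4.77 to 6.13). Mmp3, stromelysin 1, a protease that degrades matrix and cuts osteopontin, had 429 CPM against 79.6 CPM, a fold of 5.39 (5.13 to 5.66). Ptn, the heparin-binding growth factor pleiotrophin, had 84.5 CPM against 16.8 CPM, a fold of 5.03 (4.51 to 5.61). They lead the 12 largest folds among genes of at least 25 CPM. The rest were Dlk1 (3.91-fold), a membrane protein that restrains adipogenesis, Cthrc1 (3.84-fold), a secreted protein of remodelling matrix, Serpine2 (3.81-fold), which inhibits thrombin and plasminogen activators, Ctsl (3.46-fold), a lysosomal protease, Serpinf1 (3.32-fold), pigment epithelium-derived factor, Spon2 (3.29-fold), a matrix protein, Prdx1 (3.27-fold), which reduces peroxides, Cd9 (3.15-fold), a tetraspanin, and Sparcl1 (3.02-fold), a matrix protein related to SPARC. All 12 kept at least 1.5-fold with ribosomal shares equalised, but Ctsl, Prdx1 and Cd9 then stood at 1.96-, 1.998- and 1.81-fold. Clu had no UMI in 70.8% of Spp1-high cells, Ptn in 72.9%, Dlk1 in 75.3%, Sparcl1 in 73.2% and Spon2 in 57.1%. The per-cell median of these genes was 0 in both groups, so their pooled folds rest on a minority of cells. Mmp3 and Ctsl had no UMI in 29.2% and 2.38% of Spp1-high cells.

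Of these 12 genes 11 were higher in every rising bin of Spp1 than in the bin before, Spon2 being the exception. Mgp, matrix Gla protein, an inhibitor of calcification, made the largest difference in level after Spp1 and had the same order: pooled over cells in rising bins of Spp1 (up to the 50th, 75th, 90th and 95th percentile, then at or above the 95th) it was 6464, 8482, 9987, 12881 and 18230 CPM. Per cell it ranged from 14.0 to 767 UMIs per 10000 with a median of 140 in the Spp1-high cells, and from 7.38 to 751 with a median of 47.5 in the comparison cells, so the groups overlap over nearly their whole range. Mmp3 went from 79.6 CPM in the lowest bin to 139, 186, 300 and 429 CPM. Prdx1 went from 575 CPM to 727, 896, 1245 and 1879 CPM. Among the 68 cells at or above the 99th percentile they stood at 26539, 704 and 2403 CPM. Ctsl differed less up to the 90th percentile (246, 298 and 345 CPM) and stood at 562 and 852 CPM in the upper bins. The bins share their cells with the rule and are descriptions.

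**Figure D2:**
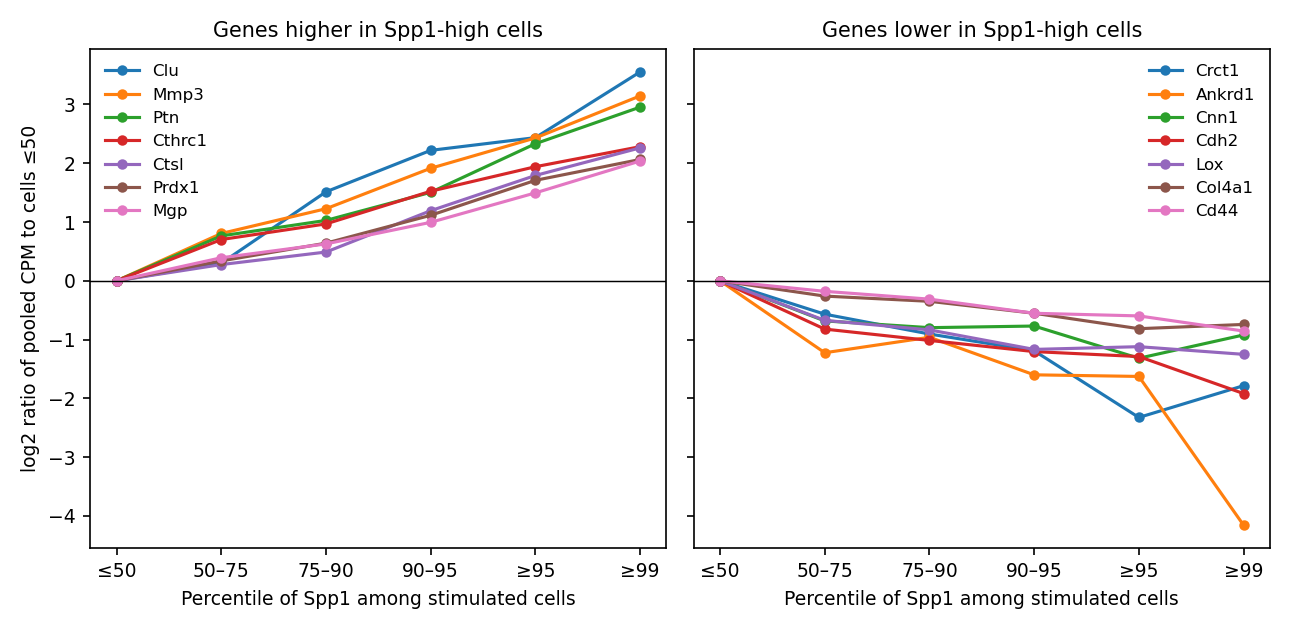
Log2 ratio of pooled CPM to the cells at or below the 50th percentile of Spp1 (y axis) across bins of Spp1 percentile in the stimulated library (x axis; the cells at or above the 99th are also in the bin before), for 7 higher genes on the left and 7 lower genes on the right. Mgp goes from 6464 to 18230 CPM between the first bin and the cells at or above the 95th percentile. The Ankrd1 point at or above the 99th percentile, a log2 ratio of -4.16, rests on 68 cells and on under 5 CPM.

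Among partners of osteopontin, receptors and proteases stood on opposite sides. Of 11 receptor genes 5 were measured, and all 5 were below the comparison level: Cd44, the hyaluronan receptor that also binds osteopontin, at 81.8 CPM against 124 CPM (1.51-fold lower, 1.38 to 1.66), and the integrin subunits Itgav (1.44-fold), Itga5 (1.42-fold), Itgb1 (1.37-fold) and Itgb5 (1.13-fold). Only Cd44 passed 1.5-fold. With ribosomal shares equalised Cd44, Itgav, Itgb1 and Itga5 passed it, and the list's median log2 fold went from -0.50 to -0.67, beside -0.05 and -0.12 over all genes compared. In the control library the receptors' median was -0.14, and Cd44 was at 137 CPM against 111 CPM, not lower. Of 10 proteases known to cut osteopontin or to activate those that do, 5 were measured: Mmp3, Plat, tissue plasminogen activator (30.5 CPM against 16.6 CPM, 1.84-fold), and Ctsb, cathepsin B (464 CPM against 273 CPM, 1.70-fold), were higher and none lower. With ribosomal shares equalised the 3 higher ones were Mmp2, Mmp3 and Plat.

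Bone matrix genes did not accompany Spp1 as a group. Of 20 mineral and bone genes 7 reached 5 CPM. Mgp and Ank, which exports pyrophosphate, an inhibitor of mineral growth, were higher (Ank 36.4 CPM against 18.7 CPM, 1.94-fold), and Slc20a1, a phosphate importer, was lower (8.42 CPM against 13.4 CPM), each on both scales. Sparc, or osteonectin, was at 1904 CPM against 1730 CPM, and at 0.876-fold equalised. Other acidic phosphoproteins of bone were at or next to 0: Ibsp and Mepe had no UMI and Dmp1 had 2 UMIs in all Spp1-high cells, where 3 counts correspond to 0.505 CPM. Alpl, alkaline phosphatase, had 1 UMI of 5938876 there and 98 UMIs of 60337221 in the comparison cells, so it too fell short of 5 CPM.

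The messages of factors known to act on the Spp1 promoter were close to the comparison level. Of 13 measured, none was higher and 1 lower, Sp1 (9.26 CPM against 14.0 CPM), which was 1.27-fold lower with ribosomal shares equalised, so that none was called. Runx1 was at 18.2 CPM against 19.1 CPM and Runx2 at 15.2 CPM against 17.5 CPM, beside the RUNX letters printed above. Cebpb was at 675 CPM against 523 CPM. Of 14 AP-1 and immediate early genes none was higher, and Fos (15.2 CPM against 28.7 CPM) and Klf4 (33.0 CPM against 72.2 CPM) were lower, on both scales.

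Chemokine and acute phase genes had the largest median of the lists with at least 5 measured members. Of 7 measured, 5 were higher and none lower, with a median log2 fold of 1.40 (0.90 with ribosomal shares equalised, 4 higher). Ccl2, which draws in monocytes, was at 122 CPM against 46.4 CPM (2.64-fold, 2.43 to 2.87), Ccl7 at 112 CPM against 57.2 CPM, and Hp, haptoglobin, at 38.7 CPM against 9.75 CPM (3.97-fold, 3.40 to 4.64). Cxcl12 stayed under the threshold, at 276 CPM against 244 CPM. In the control library the same list had a median of 0.04, with 1 of 8 higher and 1 lower, and Hp was at 2.97 CPM against 3.70 CPM. Interferon response genes had 6 of 10 higher and none lower, with a median of 0.79 (0.36 equalised, 4 higher). Ifitm3, which blocks virus entry, was at 2135 CPM against 1079 CPM (1.98-fold), B2m, the light chain of MHC class I, at 415 CPM against 207 CPM (2.01-fold), and Isg15, a ubiquitin-like modifier, at 32.7 CPM against 12.3 CPM (2.66-fold). The control library gave 1 of 12 higher and 1 lower, with a median of 0.16.

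Mast cell protease 8, proliferin and granzyme E were higher as well. Mcpt8 was at 85.9 CPM against 36.1 CPM (2.38-fold), Prl2c2, proliferin, at 49.7 CPM against 18.9 CPM (2.63-fold) and Gzme, granzyme E, at 24.4 CPM against 9.79 CPM (2.49-fold), so all 3 measured members of their list were higher. In control Spp1-high cells Prl2c2 had no UMI, but all kept control cells held only 0.0344 CPM of it. Its direction in the control therefore cannot be read. All 3 members measured in the control library without macrophage-marker cells, Gzmd, Gzme and Mcpt8, were higher, with a median log2 fold of 2.02. Gzme was 2.88-fold higher there. In the stimulated library Gzme stood at 1.39-fold with ribosomal shares equalised. Reads of Prl2c2 and Gzme can be shared with near copies: 95.8% and 36.4% of windows at their 3′ ends matched another gene. These are transcripts in cells with 6 of 8 neutrophil and mast cell markers at 0. Members of the interleukin 1 family and related cytokines had 3 of 7 higher and none lower (2 and 1 equalised), with Il33, an alarmin, at 24.4 CPM against 8.87 CPM and its receptor Il1rl1 at 84.4 CPM against 55.3 CPM, while Il1rn was at 83.2 CPM against 74.8 CPM. Among control cells Il1rl1 was at 59.6 CPM against 3.82 CPM, 15.6-fold higher. Il1rl1 lost its direction in the stimulated library at the 99th percentile, with a log2 fold of -0.34 there. In the 3 stimulated bins between the groups Il33 was already at 21.3, 27.4 and 21.6 CPM, and Il1rl1 at 92.6, 92.8 and 82.9 CPM. For both genes it is thus the comparison cells that stand apart, not the Spp1-high cells.

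Lists of lysosomal, respiratory, glycolytic and cholesterol genes held more higher members on the unweighted scale than on the weighted one. All 17 measured lysosome genes were above the comparison level, 5 of them by 1.5-fold (among them Ctsb, Ctsl, Ctsz and Lgmn), with a median of 0.41. With ribosomal shares equalised only Ctsl was left and the median was 0.11. Of 20 respiratory chain genes 9 were higher, with a median of 0.50, against 1, Ndufv1, and 0.21 equalised. Glycolysis had 6 of 16 higher and 1 lower, with a median of 0.47 against 0.14, and Ldha, lactate dehydrogenase A, was at 845 CPM against 480 CPM (1.76-fold, 1.22-fold equalised). Cholesterol synthesis had 5 of 16 higher and none lower, with a median of 0.33, against 2 of 16 and 0.19 equalised, led by Fdps at 89.9 CPM against 35.1 CPM (2.56-fold, and 1.69-fold equalised; 47.0% of its windows matched another gene). Lysosome, respiratory chain and glycolysis genes thus kept 1 higher gene each on the weighted scale, where 3.43% of all genes were higher.

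Of the glutathione and NRF2 list, 4 of 14 were higher and 1 lower. Gsto1, a glutathione transferase, was at 725 CPM against 271 CPM (2.68-fold, 2.59 to 2.77) and at 1.96-fold equalised, and Nqo1, Gstm1 and Prdx1 were also higher on both scales. Hmox1, heme oxygenase 1, stayed under the threshold at 124 CPM against 85.8 CPM, and at 0.968-fold equalised. Targets of PPARG, the receptor that rosiglitazone activates, had 3 of 7 higher: Plin2, the lipid droplet coat, at 140 CPM against 60.5 CPM (2.32-fold), Angptl4 at 178 CPM against 109 CPM (1.63-fold) and Fabp4 at 219 CPM against 137 CPM (1.60-fold). Equalised, they were at 1.502-, 1.28- and 1.06-fold, with 1 still called. The median log2 fold of the list was only 0.09, and 0.08 equalised, beside -0.05 and -0.12 over all genes compared. Of its 7 measured members 2 lay below the comparison level. The metallothioneins, which bind zinc and other metals, stayed under the threshold, with Mt1 at 14149 CPM against 14855 CPM and Mt2 at 8106 CPM against 8290 CPM. Hspa5, the endoplasmic reticulum chaperone BiP, was at 406 CPM against 190 CPM (2.14-fold, 1.22-fold equalised), while Ddit3, or CHOP, was 1.62-fold lower.

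**Figure D3:**
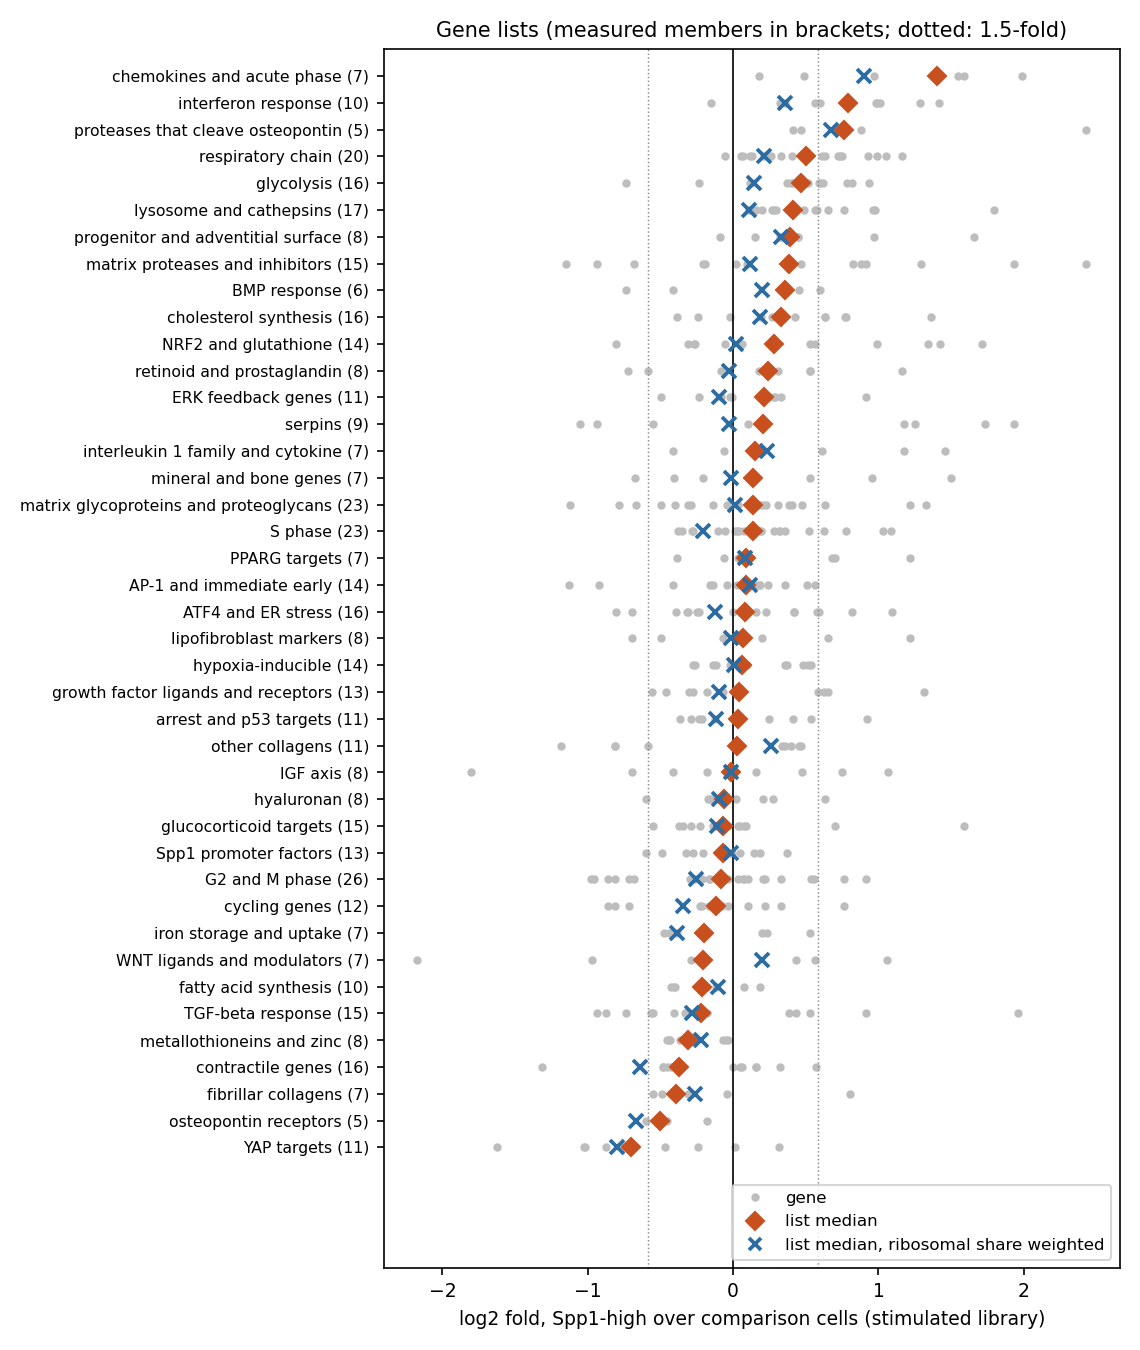
Log2 fold of pooled CPM, Spp1-high over comparison cells of the stimulated library (x axis), for every measured gene (grey points) of each list with at least 5 measured members (y axis); diamonds are list medians and crosses the medians with ribosomal shares equalised. Chemokine and acute phase genes lie at the top with a median of 1.40 and YAP targets at the bottom with -0.70, and the crosses of the metabolic lists sit nearer to 0.

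Among matrix genes, 1 of 7 fibrillar collagens was higher and none lower, with a median of -0.39 (1 and 1, Col1a1, equalised). Col1a1 had 356 CPM against 520 CPM (an inverse fold of 1.46), Col1a2 594 CPM against 737 CPM, and Col3a1 152 CPM against 200 CPM. The called gene, Col27a1, was at 7.91 CPM against 4.54 CPM. Basement membrane collagen IV was lower: Col4a1 at 388 CPM against 682 CPM (1.76-fold, 1.69 to 1.83) and Col4a2 at 254 CPM against 446 CPM (1.76-fold), together with Col4a5 and Col12a1. These 4 were the called members of 11 other collagens, of which 7 lay above the comparison level, and equalised the same 4 were lower and Col6a1, Col6a2 and Col18a1 higher. In the control library Col4a1 and Col4a2 were 1.47- and 1.503-fold lower. Lox, which cross-links collagen and elastin, had 194 CPM against 422 CPM, lower by a factor of 2.17 (2.05 to 2.31). Per cell Lox had a median of 1.42 per 10000 (quartiles 0.606 and 2.73) against 2.83 (1.27 and 5.67). Fn1, fibronectin, was at 683 CPM against 523 CPM, under the threshold. Of 15 matrix proteases and inhibitors 6 were higher and 3 lower (4 and 3 equalised). Timp1, an inhibitor of metalloproteinases, was at 4331 CPM against 2299 CPM (1.88-fold, 1.305-fold equalised). The aggrecanase Adamts5 was at 33.8 CPM against 74.98 CPM (2.22-fold lower).

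**Figure D4:**
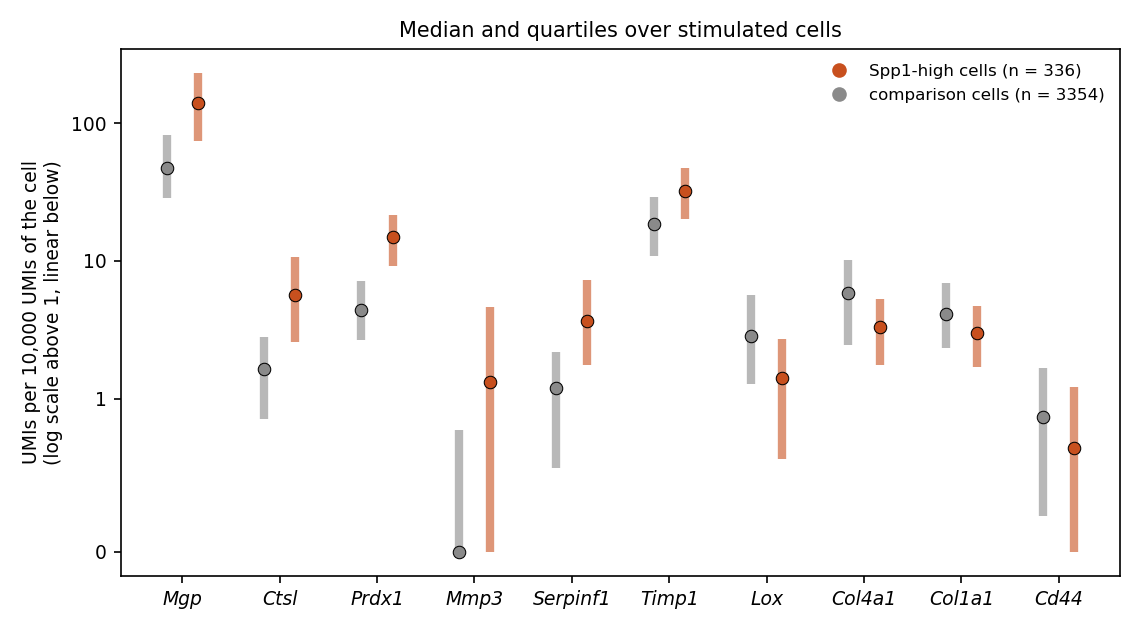
UMIs per 10000 UMIs of the cell (y axis, log scale above 1 and linear below) for 10 genes (x axis) in the 336 Spp1-high cells and the 3354 comparison cells; points are medians over cells and bars the quartiles. Median Mgp is 140 against 47.5 and median Lox 1.42 against 2.83.

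YAP targets were the list with the lowest median. Of 11 measured, 7 were lower and none higher (Ctgf, Ankrd1, Amotl1, Amotl2, Axl, Tead1 and Crim1), with a median log2 fold of -0.70 and -0.80 equalised. Ankrd1, a nuclear and sarcomeric ankyrin protein, had 21.7 CPM against 67.1 CPM, lower by a factor of 3.09 (2.59 to 3.71), Ctgf, a matricellular protein, 46.5 CPM against 85.3 CPM (1.84-fold lower), and the receptor tyrosine kinase Axl 184 CPM against 298 CPM (1.62-fold lower). Cyr61, a close relative of Ctgf, was at 155 CPM against 125 CPM. In the control library 1 of 12 was lower, with a median of -0.25. Contractile genes had a median of -0.37 with 1 of 16 lower, Cnn1, calponin 1, at 18.9 CPM against 47.0 CPM. Acta2, smooth muscle actin, was at 1202 CPM against 1154 CPM on the unweighted scale, but 1.95-fold lower with ribosomal shares equalised, where 8 of 16 contractile genes were lower. The level of Acta2 between the groups thus depends on which comparison cells carry the weight. Totals without Spp1, mitochondrial and ribosomal protein genes shifted it, like every gene, by only -0.11 in log2.

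The largest lower fold belonged to Crct1, a gene of the epidermal differentiation complex, at 43.4 CPM against 218 CPM (5.01-fold lower, 4.43 to 5.69). Its highest comparison cell had 464 UMIs per 10000, while its median was 0 in both groups and 60.5% of comparison cells had none. The rest of the 12 largest were Ankrd1, Adcyap1r1 (2.66-fold), a receptor for the peptide PACAP, Cnn1, Cdh2 (2.44-fold), N-cadherin, Tgm2 (2.30-fold), a transglutaminase that cross-links matrix, Adamts5, Klf4 (2.19-fold), a transcription factor, Lox, Serpinb2 (2.07-fold), plasminogen activator inhibitor 2, Flt1 (2.03-fold), a VEGF receptor, and Amotl1 (2.02-fold), an angiomotin-like protein. All 12 were at least 1.5-fold lower with ribosomal shares equalised.

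Signalling lists held called genes in both directions, and several of their counts changed with the scale. Over all genes compared 11.2% were higher and 7.06% lower, and 3.43% and 8.87% equalised. Counts near these shares, here and in the next paragraph, are not read as results about a list. TGF-beta response genes had 2 of 15 higher and 3 lower, and 1 and 6 equalised. Tgfbi, a matrix protein that TGF-beta induces, was at 10.8 CPM against 2.77 CPM (3.89-fold, and 5.25-fold equalised), but at 2.55 CPM against 5.98 CPM in the control contrast. Smad7, an inhibitory SMAD, was 1.67-fold lower. BMP response genes had 1 of 6 higher and 1 lower, and 0 and 2 equalised. In the IGF axis (2 of 8 higher and 2 lower, 0 and 2 equalised) Igfbp3, which binds insulin-like growth factors, was at 6.23 CPM against 21.7 CPM (3.49-fold lower) and also 3.53-fold lower in the control contrast, while Igfbp7 was at 1359 CPM against 650.2 CPM. Sfrp1, a WNT antagonist, was at 357 CPM against 171 CPM (2.08-fold) in a list with 1 of 7 higher and 2 lower, and 3 of 6 and 1 equalised. The WNT ligand Wnt4 was at 1.85 CPM against 8.35 CPM (4.51-fold lower). Among growth factors and their receptors (3 of 13 higher and none lower, 3 and 1 equalised) Hgf, hepatocyte growth factor, was at 9.60 CPM against 3.86 CPM. Cdkn2a, a cell cycle inhibitor, was at 195 CPM against 103 CPM (1.89-fold) and was the 1 called gene of 11 arrest and p53 targets on both scales. No gene was called on either scale among 14 hypoxia-inducible and 10 fatty acid synthesis genes. Of 8 metallothionein and zinc genes and 7 iron genes none was called, and equalised 1 of each was lower, Mt3 and Slc11a2.

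Serpins had 4 of 9 higher and 2 lower on both scales, and lipofibroblast markers 2 of 8 higher and 1 lower on both. Matrix glycoproteins and proteoglycans had 3 of 23 higher and 3 lower (2 and 3 equalised). Hyaluronan genes had 1 of 8 each way (0 and 1 equalised), and retinoid and prostaglandin genes 1 of 8 each way (1 and 2 of 7 equalised). Glucocorticoid targets had 2 of 15 higher (1 equalised), ERK feedback genes 1 of 11 higher on both scales (Phlda1, 156 CPM against 82.8 CPM), and progenitor surface genes 2 of 8 higher (Cd9 and Cd55; 1, Cd9, equalised), with none lower. Cartilage genes had 1 of 4 lower, Ctgf, on both scales. Of 16 ATF4 and endoplasmic reticulum stress genes 3 were higher and 2 lower, and equalised none was higher and 2 lower. Of 23 genes that mark other states of the stimulated culture 8 were higher and 2 lower (6 and 3 equalised).

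The share of cycling cells was lower. After thinning each cell to 5000 UMIs, 24.1% of the Spp1-high cells (19.6% to 29.0%) held at least 5 UMIs of 12 cycling genes, against 32.2% (30.6% to 33.8%) of the comparison cells. Unthinned the shares were 43.5% and 55.3%. Near that limit, with 4 or 5 UMIs, lay 18 and 344 cells. The bins between held 29.0%, 27.1% and 28.4%. Among 26 genes of G2 and M phase 6 were lower, among them Top2a, a topoisomerase, at 41.8 CPM against 76.0 CPM, and 2 higher. Of 23 S phase genes 4 were higher and none lower, with Tyms, thymidylate synthase, at 77.3 CPM against 36.4 CPM, and with ribosomal shares equalised none was higher and 2 lower. Among control cells 14.6% of Spp1-high and 16.3% of comparison cells were cycling.

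The top cells for other genes and gene sets overlapped with high Spp1 to different degrees. By construction 5% of all kept stimulated cells lie in the top 5% for a gene. Ctsl, Mmp3, Cthrc1, Clu, Serpinb2 and Crct1 are among the largest folds of this same contrast, and Mgp is its largest gain. Their shares restate those folds and are no further support. Of the Spp1-high cells, 26.5% (21.8% to 31.5%) lay in the top 5% for Ctsl, 24.4% (19.9% to 29.4%) for Mgp, 22.3% (18.0% to 27.2%) for Mmp3 and 17.9% (13.9% to 22.4%) for Cthrc1. For the summed PPARG targets the share was 13.7%, for Clu with Prl2c2 14.0% and for Mcpt8 9.82%. The shares were low for Serpinb2 (2.38%, 1.03% to 4.64%) and Crct1 (0.893%, 0.185% to 2.59%), which 7.04% and 6.26% of comparison cells reached. For Sfrp2 with Pdgfra (4.17%), Meg3 (4.76%) and the summed contractile genes (4.76%) the intervals included 5%. For Acta2 alone the share was 8.33% (5.61% to 11.8%), against 5.40% of comparison cells.

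The contrast was repeated inside the control library, which the rule did not use. Without macrophage-marker cells, 198 control cells at or above that library's own 95th percentile (11.9 per 10000) were set against 1974 at or below its median (0.585 per 10000), with pooled Spp1 of 2527 CPM against 16.6 CPM. There 498 of 8649 genes (5.76%) were higher and 384 (4.44%) lower. Of the 971 genes higher in stimulated Spp1-high cells 881 were measured in the control, and 826 (93.8%) lay on the same side, against 47.8% of all genes measured in both. At 1.5-fold 339 were higher in both libraries, which is 38.5% of the 881 and 71.7% of the 473 control genes, and 6 were lower in the control. Of 570 lower genes 504 (88.4%) lay on the same side, against 52.2% of all, and 90 passed 1.5-fold, 15.8% of them and 29.5% of the 305 control genes. The ribosomal share differed the same way in the control, with medians of 31.6% and 34.6%. With ribosomal shares equalised in both libraries, 72.0% of 232 higher genes (40.2% of all) and 87.7% of 708 lower genes (59.8% of all) lay on the same side. At 1.5-fold 44 of these 232 (19.0%) were then higher in both libraries, against 1.61% of all. Of the 708, 124 (17.5%) were lower in both, against 4.53% of all. Transcript length also went the same way in both libraries, as given below, and its part in this agreement was not tested. Differences between the libraries were not tested.

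Genes shared between the libraries included matrix, redox and surface proteins. In the control contrast Mmp3 was 3.00-fold, Gsto1 2.57-fold, Cd9 2.53-fold, Clu 2.49-fold and Mgp 2.42-fold higher. Mcpt8 was at 99.7 CPM against 24.6 CPM there (4.06-fold). Serpine2, 3.81-fold higher in the stimulated library, was at 16.3 CPM against 19.0 CPM, and Ptn, 5.03-fold higher, at 53.04 CPM against 39.2 CPM (1.35-fold). Cholesterol synthesis had 12 of 17 higher and none lower in the control, with a median of 0.85, and 5 of 16 in the stimulated library.

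**Figure D5:**
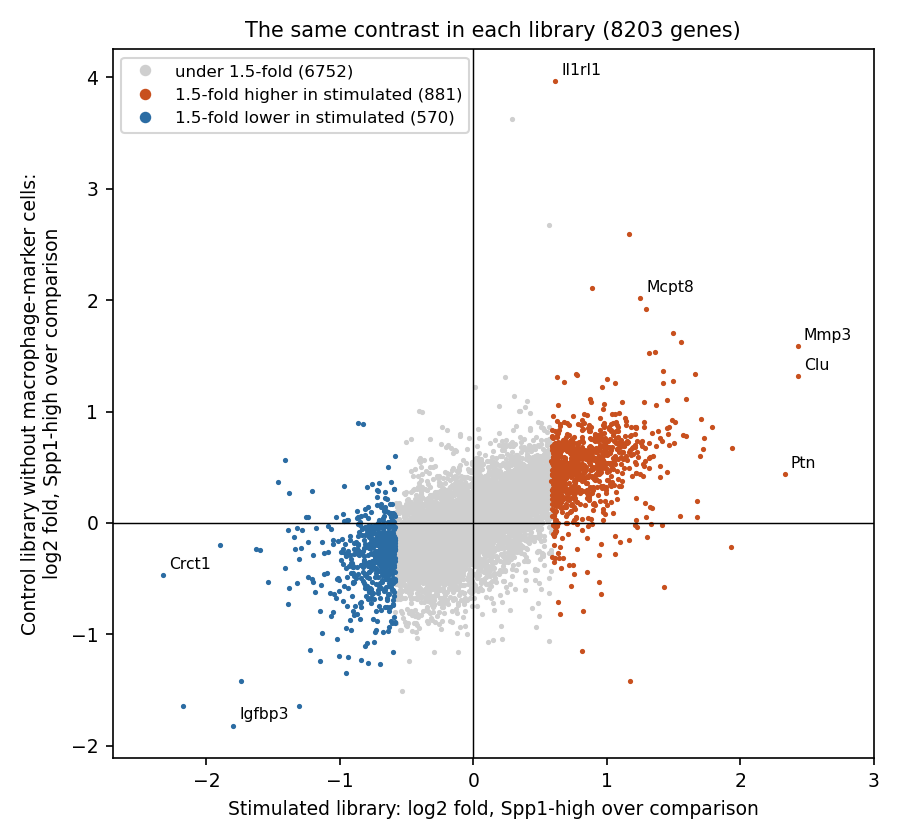
Log2 fold of Spp1-high over comparison cells in the stimulated library (x axis) and in the control library without macrophage-marker cells (y axis), 1 point per gene with a mean of at least 5 CPM in both and a UMI in every group. Of 881 genes higher in the stimulated library 826 lie above 0 in the control, and of 570 lower genes 504 lie below 0.

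Transcript length moved with the contrast. Genes higher in the Spp1-high cells had a median length of 953.5 nt, lower genes 1838 nt and all compared genes 1234.5 nt. In 5 equal classes of rising length the median log2 fold was 0.03, 0.06, 0.06, -0.07 and -0.23. In the control contrast the medians of these classes were 0.02, 0.03, 0.04, -0.04 and -0.14. In the shallow, middle and deep parts of the library 5.55%, 4.11% and 5.37% of cells were Spp1-high. Malat1, a nuclear RNA, was at 12427 CPM against 13526 CPM. The part of length and of ribosomal share in the results was not tested beyond the values given.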

How the data were processed

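The 2 single-cell libraries used were 1 control and 1 stimulated, as their titles say. The authors deposited counts, that is, unnormalized UMI counts per gene and barcode. Per the file headers Cell Ranger 3.0.2 wrote the matrices, while Cell Ranger 1.3.1 and Seurat 3.0.0 stand in the submitters' processing notes. Build, annotation and barcode filter were not given in the sources used here. The libraries held 117381412 (stimulated) and 88876791 (control) UMIs over 7698 and 5016 barcodes, of which 53 barcodes occur in both. Kept cells had at least 5000 UMIs and at most 20% mitochondrial UMIs: 990 and 936 barcodes had fewer UMIs, and 0 and 3 more mitochondrial UMIs. No doublet caller was run.

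Counts were summed over cells and divided by the total (CPM). Folds have exact conditional-Poisson 95% intervals and shares exact binomial ones, both for counting error only. Genes of at least 5 CPM on average were compared and counted at 1.5-fold, and 42 gene lists and 14 cell type lists were described by counts and medians. Named genes were the 12 largest folds each way among genes of at least 25 CPM, leaving out mitochondrial, ribosomal protein and unnamed genes, the 3 most abundant members and the largest fold of each list, all genes of a list of other states, all measured receptors and the 5 largest CPM differences each way; further genes were named after their values were seen, and some genes are not reported here. The members and lists were chosen with earlier results of these data known. Ribosomal weighting used deciles of the share in the Spp1-high cells. Cells were thinned with numpy 2.4.6, TMM came from edgeR 4.0.16, transcript ends (GENCODE M21) were compared with minimap2 2.31, and promoters are from RefSeq. On simulated counts for 8674 genes with the depths of these groups, true folds of 2 passed 1.5-fold in 100% of 50 genes, true folds of 0.5 in 92%, and unchanged genes in 0.448%. These counts were drawn per group with counting error only and no variation from cell to cell. The rates are therefore not error rates of the genes called above.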

Additional observations from a re-analysis of the deposited data

Results flagged for a closer look

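Ank, a pyrophosphate exporter, was 1.94-fold the comparison level in the Spp1-high cells of the stimulated library and 0.643-fold in those of the control library without macrophage-marker cells. Hsd3b6, a steroid dehydrogenase, was 1.57-fold and 0.567-fold, and 24.2% of its 3′ windows matched another gene. Hsd3b6 rests on 53 UMIs in the stimulated Spp1-high cells, of which 97.9% held none, and its fold there was 0.74 with ribosomal shares equalised and 0.543 in cells not in cycle. In the stimulated bins between the groups Ank was at 28.8, 32.3 and 30.8 CPM and Hsd3b6 at 9.45, 6.05 and 3.38 CPM. Both genes passed 1.5-fold in opposite directions on the unweighted scale over all cells. With 1 library each, the difference was not tested.

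Stimulated barcodes under 3000 UMIs, which the comparisons leave out, held 6137 CPM of Spp1, above the 3469 CPM of the kept stimulated cells and the 280 CPM of control barcodes of that depth.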

How the results depend on the processing

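No paired analysis was possible because each group is 1 library. Of 16 settings for the counts of genes, these moved a count by over 1.5 times. From 971 higher and 612 lower genes, the counts went to 647 and 318 at the 90th percentile, 567 and 179 among genes of at least 20 CPM, and 2180 and 3260 among all genes of at least 3 counts. Lower genes alone moved to 1404 at the 99th percentile, 373 against all cells under the 95th, and 1293 with totals that leave out Spp1, mitochondrial and ribosomal protein genes. Ribosomal weighting, chosen after seeing the data, left 299 higher genes. The CPM and count filters change the number of genes tested by construction, but the shares changed as well. They were 12.5% higher and 3.93% lower at 20 CPM, and 14.2% and 21.2% at 3 counts, beside 11.2% and 7.06%. Of the 612 lower genes only 179 averaged at least 20 CPM, so the lower count rests largely on genes of low level. For the other settings the cause was not tested. Over all settings 679 list medians stayed inside the main interval or range and 24 moved out of it. Of the folds of named genes 2143 stayed inside their counting interval, 694 moved and 4, all of genes called at 1.5-fold, changed sign. Sign changes of genes under 1.5-fold, given below, are not counted separately here.

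In the control library the share of higher genes on the same side went from 93.8% to 74.0% at the stimulated threshold, where 1 control cell without macrophage markers was left, and to 72.0% with ribosomal weights. That of lower genes went from 88.4% to 82.0% with all control cells and 73.0% at that threshold. Cycling shares of Spp1-high and comparison cells were 32.4% and 44.2% at 3 UMIs, 15.2% and 19.5% at 8 UMIs, and 43.5% and 55.3% unthinned.

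Of the named genes called at 1.5-fold, Hsd3b6, Tnfaip6 and Il1rl1 changed sign on the log2 scale: Hsd3b6 to -0.88 in cells not in cycle and -0.43 with ribosomal weights, Tnfaip6 to -0.0068 with ribosomal weights, and Il1rl1 to -0.34 at the 99th percentile. A further 31 named genes under 1.5-fold, Acta2, Sfrp2 and Hmox1 among them, changed sign under at least 1 setting.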
